A study of Homo sapiens with 12 samples.

Results

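Matrix metalloproteinases (MMPs) and their inhibitors were read in human MDA-MB-231 cells, a metastatic breast cancer line. The members were every probe set whose only gene symbol in the platform annotation was MMP1, MMP2, MMP3, MMP9, MMP13, MMP14, TIMP1, TIMP2 or TIMP3. They came to 19 of the 54675 probe sets of the array: 4 each for MMP14 and TIMP3, 3 each for MMP2 and TIMP2, and 1 each for the other 5 genes. RNA came from 3 groups of 4 replicates, lettered A to D. The Sharp1 cells overexpressed Sharp1, a basic helix-loop-helix repressor with the gene symbol BHLHE41. The shHIF cells carried retroviral small hairpins that deplete both HIF1a and HIF2a, the oxygen-regulated alpha subunits of the hypoxia-inducible factors. The control (shGFP) cells carried a GFP hairpin in a retroviral vector. All cells grew in DMEM/F12 with serum under normal conditions, with no hypoxia treatment named. The labels call the replicates biological but do not name separate cultures, and the p-values therefore cover only the spread between these arrays, which may be technical. The Sharp1 vector was not stated in the labels, and both comparisons with control share the same 4 shGFP arrays.

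MMPs are zinc endopeptidases that cut collagens and other matrix proteins and that are mostly made as inactive precursors. MMP1 and MMP13 are collagenases, MMP2 and MMP9 are gelatinases, MMP3 is a stromelysin that also activates other MMPs, and MMP14 is a membrane-anchored enzyme that activates MMP2 at the cell surface. The TIMPs are secreted proteins that block the active site of these enzymes. TIMP2 also takes part, with MMP14, in the activation of MMP2, and TIMP3 is held in the matrix and also blocks several ADAM and ADAMTS proteases. The arrays measured RNA, not enzyme activity, and in bulk RNA fewer cells making a transcript and less transcript per cell cannot be told apart.

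Promoter windows are shown for the members in the RefSeq promoter table, since HIF and Sharp1 both act on promoter sequence: the HIF core motif is ACGTG or GCGTG, and factors of the Sharp1 family are known to bind CACGTG. The table held 3 of the 9 members: MMP14 at chr14:22836335-22836584, TIMP1 at chrX:47582186-47582435 and TIMP3 at chr22:32801455-32801704, all on the plus strand of GRCh38.p14. Each run is the 250 bases upstream of the RefSeq start, 5′ to 3′, and capitals mark a HIF core read on either strand. The TIMP1 window lies within the span of SYN1 and the TIMP3 window within that of SYN3, and no other gene spans the MMP14 window.
MMP14: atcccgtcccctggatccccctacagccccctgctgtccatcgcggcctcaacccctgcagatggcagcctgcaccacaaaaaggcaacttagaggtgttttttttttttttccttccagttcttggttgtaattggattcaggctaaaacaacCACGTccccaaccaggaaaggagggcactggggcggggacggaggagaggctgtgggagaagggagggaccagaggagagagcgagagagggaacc
TIMP1: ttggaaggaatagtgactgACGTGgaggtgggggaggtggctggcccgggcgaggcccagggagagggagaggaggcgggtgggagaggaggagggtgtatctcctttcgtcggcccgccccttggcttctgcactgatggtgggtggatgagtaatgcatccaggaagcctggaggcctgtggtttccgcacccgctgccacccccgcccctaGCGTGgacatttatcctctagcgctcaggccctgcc
TIMP3: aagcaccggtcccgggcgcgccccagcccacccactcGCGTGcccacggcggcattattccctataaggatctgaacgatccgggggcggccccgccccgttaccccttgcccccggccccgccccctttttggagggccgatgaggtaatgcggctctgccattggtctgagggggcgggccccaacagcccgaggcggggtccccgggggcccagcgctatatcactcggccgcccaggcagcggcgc
The MMP14 window held ACGTG on the minus strand, the TIMP1 window held ACGTG and GCGTG, and the TIMP3 window held GCGTG. Over 35093 promoter windows of the same length in the table, 43.2% held ACGTG or GCGTG on either strand. None of the 3 windows held CACGTG, present in 6.34% of windows, or the AP-1 consensus TGANTCA, present in 6.57%. Only exact matches were searched, so variant AP-1 sites were not covered. CACGTG contains ACGTG on both strands, so these counts overlap. The matches are descriptions of letters, and of these 3 genes only TIMP3 was called on its brightest probe set.

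The deposited values are log2 expression values, and a difference of 1 is 2-fold. Array medians lay between 5.39 and 5.44, and the lowest correlation between arrays of 1 group was 0.996. EPAS1, which encodes HIF2a, averaged 6.68 in shHIF arrays and 9.53 in control arrays, HIF1A averaged 12.05 in shHIF arrays and 12.78 in control arrays, and in Sharp1 cells, where HIF1A was not called, EPAS1 averaged 8.82, a fall of 0.71 against control (limma adjusted p = 7.07e-08). Of 4 BHLHE41 probe sets 2 were higher in Sharp1 than in control arrays, at 9.24 against 3.89 and at 6.01 against 4.42, and 1 was not called. The BHLHE41 probe set with the highest mean over all arrays went the other way, at 4.56 in Sharp1 arrays and 6.62 in control arrays. The epithelial marker CDH1 read 3.97, 4.00 and 4.06 in Sharp1, shHIF and control arrays, below the median of all values, 5.41. Of 12 luminal breast markers, CDH1 among them, 8, 9 and 9 averaged above that median in these groups. The mesenchymal marker VIM read 14.55, 14.22 and 14.48. Of 9 mesenchymal markers, VIM among them, 8 averaged above the median in each group. In Sharp1 against control cells 3 of the 9 were called higher, with CD44 up by 0.90, and 2 lower, with S100A4 down by 1.61. In shHIF against control cells 0 were called higher and 3 lower. The shares called were 55.6% and 33.3%, beside 24.7% and 28.3% of all genes. Arrays A and D of shHIF were low in spike-in signal, 10.39 and 10.45, against 10.63 to 10.81 on the other 10 arrays. The 3′ minus 5′ actin signal was 0.90 to 0.94 on shHIF arrays A to C and 0.62 on array D, against 0.56 to 0.85 in Sharp1 arrays and 0.59 to 0.74 in control arrays.

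Of the 9 genes, MMP1, TIMP2 and TIMP3 changed in at least 1 comparison, and MMP2, MMP3, MMP9, MMP13, MMP14 and TIMP1 did not pass the test in any. MMP1 was the member whose group means spanned the widest range: it was lowest in Sharp1 cells and highest in shHIF cells, with the control between them. TIMP3 was lowest in Sharp1 cells, and TIMP2 fell in Sharp1 cells. For these counts a gene was read on its brightest probe set (highest 12-array mean), and a call was an adjusted p under 0.05 in a limma fit over 54613 probe sets.

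**Figure D1:**
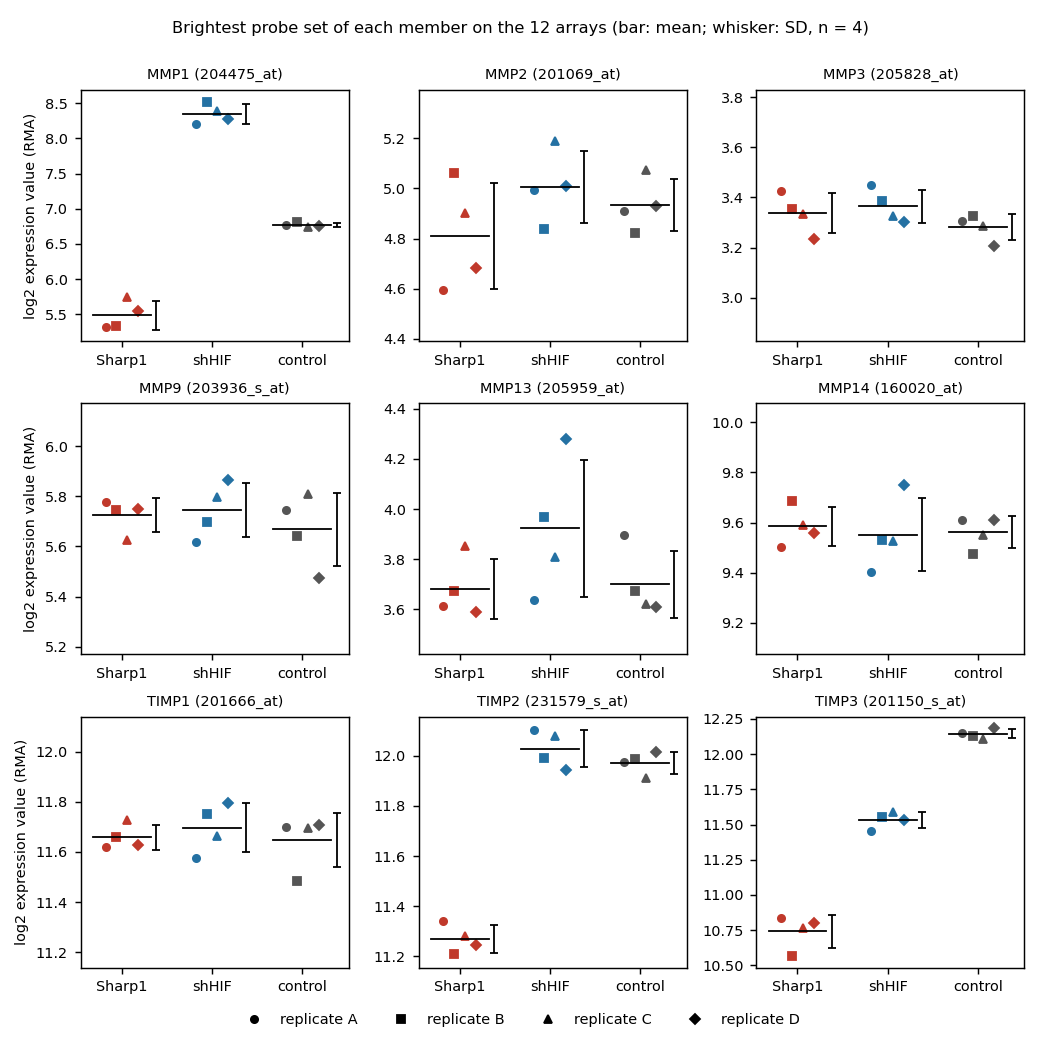
Log2 expression value of each of the 9 genes on its brightest probe set, 1 point per array, by group, with the group mean as a bar. MMP1 and TIMP3 are the panels in which all 3 groups stand apart, and in the TIMP2 panel only the Sharp1 arrays do. MMP1 is the panel in which Sharp1 and shHIF arrays lie on opposite sides of the control.

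MMP1, the interstitial collagenase that cuts fibrillar collagen, has 1 probe set (204475_at). It read 5.31, 5.34, 5.74 and 5.55 on Sharp1 arrays A to D, 8.20, 8.52, 8.39 and 8.27 on shHIF arrays, and 6.76, 6.81, 6.74 and 6.75 on control arrays. The groups did not overlap: every Sharp1 array was below and every shHIF array above every control array. The means were 5.48 ± 0.20 in Sharp1 cells, 8.34 ± 0.14 in shHIF cells and 6.77 ± 0.03 in control cells (SD, n = 4 each). MMP1 thus fell by 1.28 on the log2 scale in Sharp1 against control cells (SE 0.09, limma adjusted p = 1.31e-10). MMP1 rose in shHIF against control cells by 1.58 (SE 0.09, limma adjusted p = 8.27e-12), a 2.98-fold difference. Its place by size of change was 15 of 19775 genes in shHIF against control and 194 in Sharp1 against control. Between Sharp1 and shHIF cells MMP1 differed by −2.86 (95% interval −3.05 to −2.67, limma adjusted p = 4.18e-17). Without shHIF arrays A and D, which had the low spike-in signal, the shHIF against control difference of MMP1 was 1.69. The Sharp1 level of MMP1 lay close to the median of all values on the arrays, 5.41.

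The other collagenase, MMP13, which is known for cutting type II collagen in cartilage, was dim. It read 3.62, 3.67, 3.85 and 3.59 on Sharp1 arrays, 3.64, 3.97, 3.81 and 4.28 on shHIF arrays, and 3.90, 3.67, 3.62 and 3.61 on control arrays. The 3 groups overlapped. The difference of MMP13 was −0.02 in Sharp1 against control, 0.22 in shHIF against control (limma adjusted p = 0.192) and −0.24 in Sharp1 against shHIF (limma adjusted p = 0.132). Without shHIF array A the Sharp1 against shHIF difference of MMP13 was −0.34 and passed the test, with a limma adjusted p of 0.035.

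The gelatinase MMP2, which cuts denatured collagen and basement membrane, read 4.60, 5.06, 4.90 and 4.68 on Sharp1 arrays, 4.99, 4.84, 5.19 and 5.01 on shHIF arrays, and 4.91, 4.82, 5.07 and 4.93 on control arrays. These groups overlapped, and all 3 MMP2 probe sets were without a call. The 95% interval of the MMP2 difference ran from −0.35 to 0.11 in Sharp1 against control and from −0.16 to 0.30 in shHIF against control. MMP9, the other gelatinase and a product of many leukocytes, averaged 5.73 ± 0.07 in Sharp1 cells, 5.75 ± 0.11 in shHIF cells and 5.67 ± 0.15 in control cells (SD, n = 4 each), with intervals of −0.14 to 0.25 and −0.12 to 0.27 against control. MMP3 averaged 3.34 ± 0.08, 3.37 ± 0.07 and 3.28 ± 0.05 in Sharp1, shHIF and control cells. For MMP2, MMP3 and MMP13 the brightest probe set was below the median of all values on more than 8 of the 12 arrays, so small changes in these genes may not be detectable.

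MMP14, the membrane-type enzyme, differed little between the groups on its 4 probe sets. The brightest, 160020_at, averaged 9.59 ± 0.08 in Sharp1 cells, 9.55 ± 0.14 in shHIF cells and 9.56 ± 0.06 in control cells (SD, n = 4 each). The 95% interval of that MMP14 difference was −0.11 to 0.15 in Sharp1 against control and −0.14 to 0.12 in shHIF against control. The dimmest MMP14 probe set, 217279_x_at, whose suffix marks probes that can bind related transcripts, averaged 8.04 in Sharp1 cells and 8.24 in control cells. Its fall of 0.20 (SE 0.07, limma adjusted p = 0.0350) was lost under 8 of 19 alternative settings. No other MMP14 probe set was called.

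TIMP1, a broad inhibitor of MMPs, did not pass the test in any comparison. It averaged 11.66 ± 0.05 in Sharp1 cells, 11.70 ± 0.10 in shHIF cells and 11.65 ± 0.11 in control cells (SD, n = 4 each). The TIMP1 difference had a 95% interval of −0.09 to 0.12 in Sharp1 against control and of −0.05 to 0.15 in shHIF against control.

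TIMP2, the inhibitor that also bridges MMP14 and the MMP2 precursor, read 11.34, 11.21, 11.28 and 11.25 on Sharp1 arrays, 12.10, 11.99, 12.08 and 11.94 on shHIF arrays, and 11.97, 11.99, 11.91 and 12.02 on control arrays, on its brightest probe set (231579_s_at). Every Sharp1 array was below every other array, while shHIF and control arrays overlapped. TIMP2 fell by 0.70 in Sharp1 against control cells (SE 0.04, limma adjusted p = 2.67e-12). The shHIF against control difference of TIMP2 was 0.06, with a 95% interval of −0.03 to 0.14. Between Sharp1 and shHIF cells the TIMP2 difference was −0.76 (limma adjusted p = 3.84e-13).

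All 3 TIMP2 probe sets fell in Sharp1 against control cells, by 0.70, 0.77 and 1.30. They differed in shHIF cells. The dimmest, 203167_at, read 7.60, 7.34, 7.59 and 7.59 on Sharp1 arrays, 9.25, 9.28, 9.17 and 9.19 on shHIF arrays, and 8.86, 8.76, 8.80 and 8.89 on control arrays. Its 3 groups did not overlap, and TIMP2 was higher there in shHIF than in control cells by 0.39 (SE 0.06, limma adjusted p = 4.07e-05). On the third TIMP2 probe set, 224560_at, that difference was 0.09 (limma adjusted p = 0.132). With the mean of all its probe sets as the value of the gene, TIMP2 was higher in shHIF than in control cells by 0.18 (limma adjusted p = 0.00279).

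TIMP3, the matrix-bound inhibitor, read 10.84, 10.57, 10.76 and 10.80 on Sharp1 arrays, 11.45, 11.55, 11.59 and 11.54 on shHIF arrays, and 12.15, 12.13, 12.11 and 12.18 on control arrays, on its brightest probe set (201150_s_at). The 3 groups did not overlap, with Sharp1 lowest and control highest. TIMP3 fell by 1.40 in Sharp1 against control cells (SE 0.05, limma adjusted p = 1.51e-16), 2.64-fold lower. On this probe set TIMP3 also fell in shHIF against control cells, by 0.61 (SE 0.05, limma adjusted p = 1.04e-09). The Sharp1 against shHIF difference of TIMP3 on this probe set was −0.79 (limma adjusted p = 3.38e-12). It was larger on the other TIMP3 probe sets, at −1.64 (201147_s_at), −1.46 (201149_s_at) and −1.41 (201148_s_at), all called.

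The 4 TIMP3 probe sets gave the same direction in Sharp1 against control cells, with differences of −1.40, −1.57, −1.52 and −1.51. In shHIF against control cells the other 3 TIMP3 probe sets gave 0.07 (201147_s_at), −0.06 (201149_s_at) and −0.10 (201148_s_at), and none of these was called. The fall of TIMP3 in shHIF cells was therefore seen on 1 of 4 probe sets. With the mean of the 4 as the value of the gene, the TIMP3 difference was −0.18 (limma adjusted p = 0.00479). Without shHIF arrays A and D the difference on the brightest probe set was −0.57. For all 3 probe sets of TIMP2 and all 4 of TIMP3, Sharp1 arrays were the lowest of the 3 groups.

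**Figure D2:**
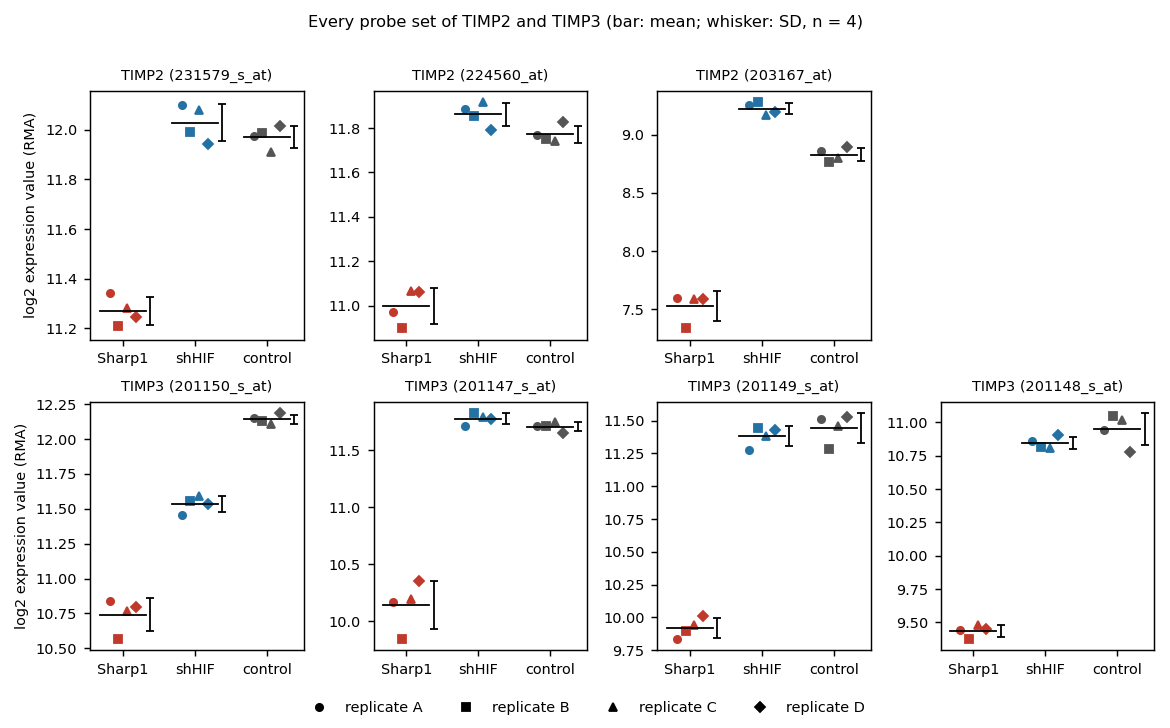
Log2 expression value on each TIMP2 and TIMP3 probe set, 1 point per array, by group, with the group mean as a bar. Sharp1 arrays are lowest on all 7 probe sets, whereas the place of shHIF against control depends on the probe set, from 0.39 higher for TIMP2 203167_at to 0.61 lower for TIMP3 201150_s_at.

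In Sharp1 against control cells 3 of the 9 genes were called, all lower (MMP1, TIMP2 and TIMP3), where 24.7% of all 19775 genes were called, 14% higher and 10.7% lower. Against the same control, 2 of the 9 were called in shHIF cells, MMP1 higher and TIMP3 lower, where 28.3% of all genes were called, 16% higher and 12.3% lower. In Sharp1 against shHIF cells the same 3 members were called lower as in Sharp1 against control, where 36.1% of all genes were called, 17.2% higher and 18.9% lower. Over the 19 member probe sets the calls numbered 9, 3 and 8 in these comparisons, beside 18.1%, 22.2% and 29.1% of all probe sets. Counted by gene, the share of members called was near that of all genes in each comparison. By probe set it was higher than over all probe sets in both Sharp1 comparisons, where every TIMP2 and TIMP3 probe set was called. The groups did not overlap for 3, 2 and 3 members in the 3 comparisons, where that held for 28.9%, 28.6% and 35.4% of all genes. The median difference of the members was −0.02, 0.07 and −0.20, beside medians of −0.002, 0.047 and −0.060 over all genes. By brightest probe set, a called change of at least 2-fold was found in 1.68% of genes in Sharp1 against control, including MMP1 and TIMP3. Such a change was found in 0.652% of genes in shHIF against control, including MMP1, and in 2.42% in Sharp1 against shHIF, including MMP1.

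**Figure D3:**
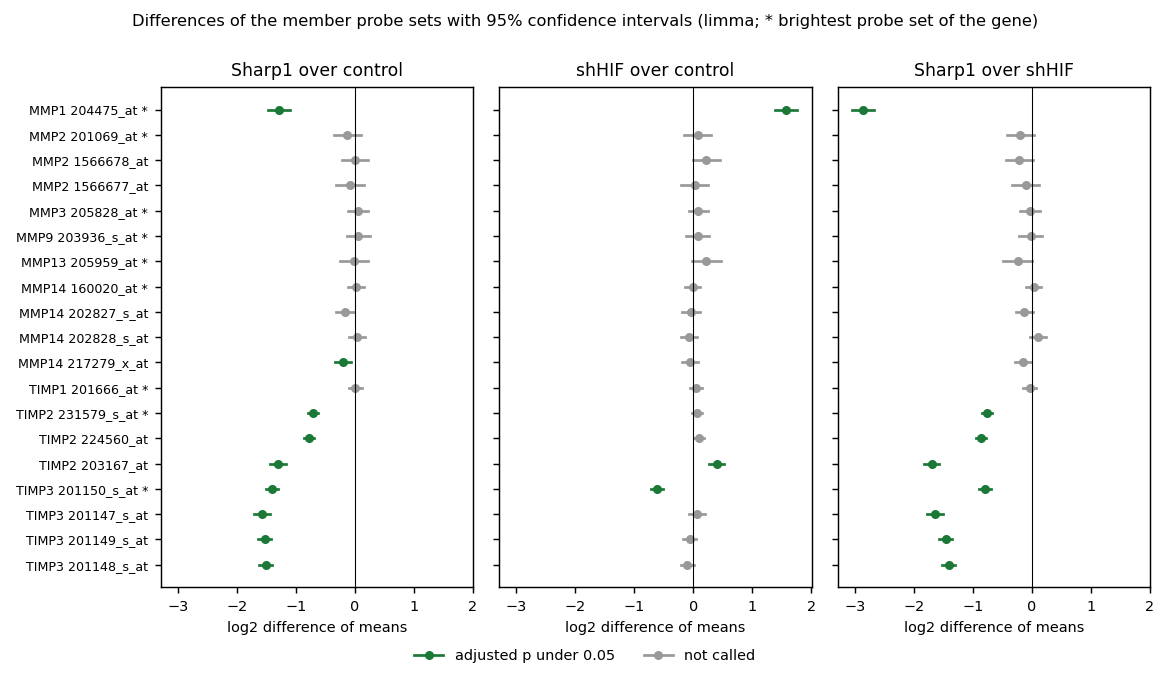
Difference in log2 expression of each of the 19 member probe sets with its 95% interval. The comparisons are Sharp1 and shHIF against control cells and Sharp1 against shHIF cells. A star marks the brightest probe set of each gene. The intervals of MMP1 lie on opposite sides of 0 in the first pair of comparisons. On the brightest probe sets of MMP2, MMP3, MMP9, MMP13, MMP14 and TIMP1 the intervals cross 0 in both.

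MMP1, MMP3 and MMP13 stand in a row of MMP genes at 11q22, so the neighbours of MMP1 were read in RefSeq order between YAP1 and PDGFD. That stretch held 16 protein-coding genes, of which 15 were measured, and 9 of these were MMPs. Of the 9 MMPs, MMP1 and MMP8 were called in Sharp1 against control, and MMP1 was the only one called in shHIF against control. MMP3 and MMP10, next to MMP1 in that order, differed from control by 0.06 and 0.11 in Sharp1 cells and by 0.08 and 0.10 in shHIF cells, without a call. Both were dim, at 3.28 and 3.49 in control cells. MMP1 was the only one of the 9 MMPs to average above the median of all values, 5.41, in any group. Small changes in the other MMPs of the stretch may therefore not be detectable. MMP8, the neutrophil collagenase, moved opposite to MMP1 in Sharp1 cells, at 4.75 in Sharp1 cells and 3.75 in control cells, higher by 1.00 (limma adjusted p = 3.23e-07), and remained dim. Of the 6 genes of the stretch that are not MMPs, 3 were called in Sharp1 and 5 in shHIF cells against control. Over all genes 24.7% and 28.3% were called in these comparisons. YAP1, a transcriptional coactivator of the Hippo pathway at the end of the stretch, fell by 1.34 in shHIF against control cells, and its difference in Sharp1 cells was 0.08.

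**Figure D4:**
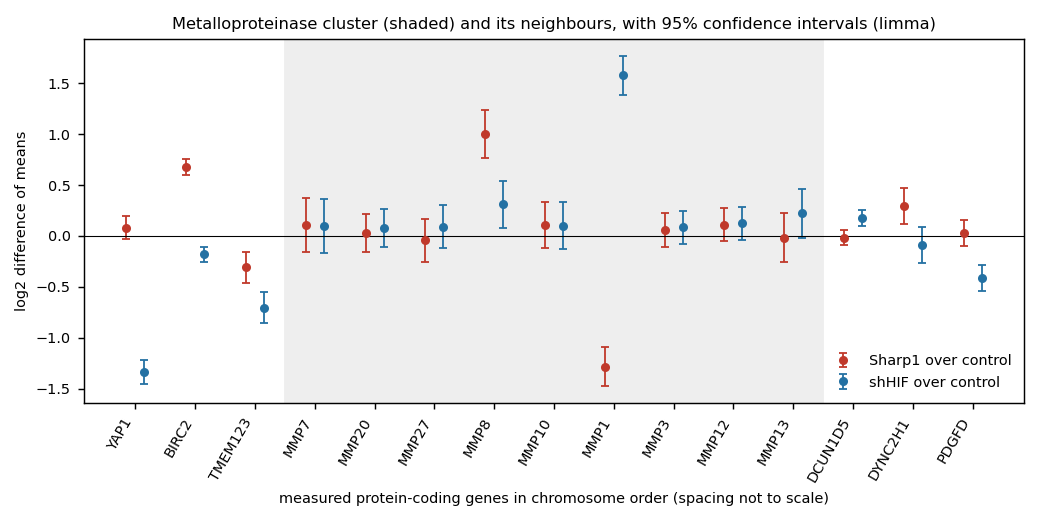
Difference in log2 expression of the 15 measured genes at 11q22 from YAP1 to PDGFD, in RefSeq order, for Sharp1 and shHIF against control, with 95% intervals. MMP1 is far from 0 in opposite directions, at −1.28 and 1.58, while MMP10 and MMP3 beside it, both dim, lie near 0.

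Of the 16 other measured MMPs, 1 was called higher and 1 lower in Sharp1 against control, and likewise 1 and 1 in shHIF against control. These calls made up 12.5% of the 16 in each comparison, beside 24.7% and 28.3% of all genes. The fall in Sharp1 cells was in MMP16, a membrane-type enzyme, at 4.55 in Sharp1 cells and 6.61 in control cells, a difference of −2.05 (limma adjusted p = 6.80e-11). The call was shared by 2 of 5 MMP16 probe sets. MMP16 also fell in shHIF against control cells on its brightest probe set, by 0.45, with overlapping groups (limma adjusted p = 0.0247). No other MMP16 probe set was called in that comparison. MMP15, another membrane-type enzyme, was the MMP that rose in shHIF cells, by 0.35.

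Among 16 other inhibitors and cell-surface partners, 6 were called higher and 3 lower in Sharp1 against control. Their called share was 56.2% in Sharp1 and 37.5% in shHIF against control, beside 24.7% and 28.3% of all genes. TIMP4, the fourth TIMP, is measured by 1 probe set and averaged 5.75 ± 0.14 in Sharp1 cells and 7.15 ± 0.17 in control cells (SD, n = 4 each), a fall of 1.40 (SE 0.10, limma adjusted p = 5.68e-11). In shHIF cells TIMP4 averaged 7.05 ± 0.13, without a call against control. In Sharp1 against control cells CD44, a hyaluronan receptor that can hold MMP9 at the cell surface, rose by 0.90, and the proteoglycan SDC2 by 0.64, whereas SDC1 fell by 1.05. In shHIF against control cells 3 of the 16 were called higher and 3 lower, among them the proteoglycan SPOCK1 and the protease inhibitor TFPI2, which rose by 0.58 and 0.48, and the integrin subunit ITGAV, which fell by 0.54.

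Proteases that activate MMPs, with their receptor and inhibitors, included 8 higher and 2 lower of 20 measured in Sharp1 against control cells. The share called was 50%, beside 24.7% of all genes. PLAT, the tissue plasminogen activator, rose by 0.93 and the proprotein convertase PCSK5 by 0.92. The counts were 3 higher and 4 lower in shHIF against control cells, a share of 35% beside 28.3% of all genes. Cathepsin L (CTSL) rose by 0.56 and the convertase FURIN, which activates MMP14, by 0.35, and the urokinase gene PLAU fell by 0.58. Of 17 ADAM and ADAMTS proteases, several of which TIMP3 inhibits, 7 were higher and 3 lower in Sharp1 and 5 higher and 1 lower in shHIF cells against control. Those calls made up 58.8% and 35.3% of the 17, beside 24.7% and 28.3% of all genes. ADAMTS6 and ADAMTS5 rose by 1.56 and 1.06 in Sharp1 cells, ADAMTS9 rose by 0.77 in shHIF cells, and ADAM8 fell in both, by 0.67 and 0.44.

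Of 12 measured collagens and other matrix substrates, 8 were called higher and 0 lower in Sharp1 against control cells. Their median difference was 0.48, beside −0.002 over all genes. The called share of these substrates was 66.7%, beside 24.7% of all genes. FN1, which encodes fibronectin, rose by 1.21 and COL4A1, a basement membrane collagen, by 1.13. In shHIF against control cells 5 were higher and 2 lower: VCAN rose by 0.90, and COL4A1 fell by 0.52. There 58.3% of the 12 were called, beside 28.3% of all genes. COL4A1 was higher in Sharp1 than in shHIF cells by 1.65.

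Transcription factors known to bind MMP promoters were called in both directions, with 6 higher and 4 lower of 21 in Sharp1 and 9 higher and 5 lower in shHIF cells against control. The called shares of these factors were 47.6% and 66.7%, beside 24.7% and 28.3% of all genes. FOSL1, an AP-1 subunit, averaged 9.70 in Sharp1 cells, 10.50 in shHIF cells and 10.36 in control cells. It fell by 0.66 in Sharp1 against control cells (limma adjusted p = 1.59e-09), and its shHIF against control difference of 0.13 was not called. EGR1 rose in both, by 1.18 and 0.81 against control, and the ETS factor ETV1 fell in both, by 0.47 and 1.04.

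**Figure D5:**
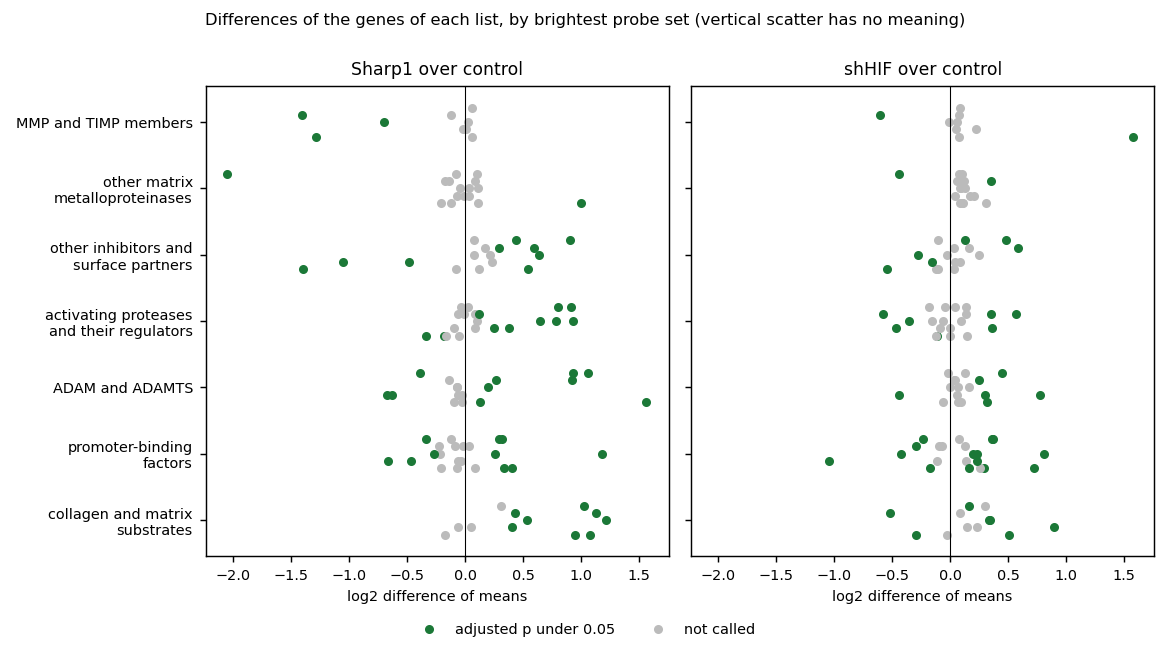
Difference in log2 expression of each gene in the gene lists, on its brightest probe set, for Sharp1 and shHIF cells against control cells. Each point is a gene, and called genes are in green. In Sharp1 against control the matrix substrates include 8 genes called higher and 0 called lower. Of the 9 members, 0 were called higher and 3 lower.

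Markers of other cells were read because leukocytes and fibroblasts also make MMPs and TIMPs. The mean level of 11 measured leukocyte markers was 4.99 to 5.15 on Sharp1 arrays, 5.26 to 5.39 on shHIF arrays and 5.34 to 5.46 on control arrays, with 1 called higher and 2 lower in Sharp1 against control. The 2 that fell were LAPTM5, a lysosomal protein of blood cells, at 6.86 in Sharp1 cells, 8.87 in shHIF cells and 9.04 in control cells, and LYZ, which encodes lysozyme, at 4.55, 5.09 and 5.82. PTPRC, their defining gene, was the one called higher, and it read 4.45, 4.38 and 4.01 in Sharp1, shHIF and control cells, below the median of all values. The mean of 12 fibroblast markers was 4.96 to 5.13 on Sharp1 arrays, 5.01 to 5.08 on shHIF arrays and 4.87 to 5.01 on control arrays, with 3 called higher and 0 lower in Sharp1 against control. The mean of 12 luminal breast markers was 7.32 to 7.34 on Sharp1 arrays, 7.52 to 7.67 on shHIF arrays and 7.74 to 7.86 on control arrays, with 2 called higher and 3 lower in Sharp1 against control and a median difference near 0. The members moved in different directions: in Sharp1 against control cells AGR2 fell by 3.01 and TFF1 fell by 2.61, whereas XBP1 rose by 0.52 and ERBB3 by 0.31. In Sharp1 against control cells 27.3%, 25% and 41.7% of the leukocyte, fibroblast and luminal markers were called, beside 24.7% of all genes. The part of these markers in the MMP and TIMP differences was not tested.

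The genes whose profile over the 12 arrays was most like that of the 3 widest-ranging members were named from 617 to 618 genes whose group means spanned at least 1. The points fall into 3 groups, so these correlations mostly describe the order of the group means. For MMP1 they were PLPP3, SOX4, SPINK4, CRADD and SLC16A14, with Pearson r of 0.989 to 0.996. SPINK4 averaged 6.16, 8.80 and 7.37 in Sharp1, shHIF and control cells, the same order as MMP1. For TIMP3 they were SHANK2, INHBB, SLCO4A1, MBNL3 and CFAP251, with r of 0.988 to 0.993. These were matched to the brightest TIMP3 probe set, the only one called lower in shHIF than in control cells. They do not describe the profile of the other TIMP3 probe sets. For TIMP2, also on its brightest probe set, they were SLAMF7, ZFYVE28, AGR2, HMGA1 and MAL2, with r of 0.988 to 0.992. SLAMF7 averaged 5.30, 8.88 and 8.73 in Sharp1, shHIF and control cells, which puts it, as with TIMP2, low in Sharp1 cells alone.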

How the data were processed

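Expression in 12 samples of MDA-MB-231 cells was measured on Affymetrix arrays. The authors deposited log2 expression values, 1 per probe set and array, made with RMA per the submitters' processing notes, with no version or settings stated there. RMA subtracts background and makes the array distributions alike, which compresses differences of dim probe sets. Precision is limited by the number of arrays and by how far a probe set lies above background.

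Names came from the platform annotation, in which 41091 probe sets had 1 symbol, 1801 several and 11721 none, after 62 control probe sets were left out. Group means of all 12 arrays were fitted in R 4.3.3 with limma 3.58.1 (lmFit, then eBayes with trend), with Benjamini-Hochberg adjustment over 54613 probe sets. A gene was counted by its brightest probe set. Promoter windows and gene order came from RefSeq, GRCh38.p14. The fit was tested on simulated data.

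The members and lists were chosen with earlier results of these data known. Every member was named on every probe set. From each list were named the up to 2 called genes with the largest rise and the up to 2 with the largest fall per comparison (some are left out of the text), with the 5 genes most like each of 3 members. Alternatives changed the choice of probe set, scaling, filter, weights, trend, groups fitted, replicate block and arrays left out.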

Additional observations from a re-analysis of the deposited data

Results flagged for a closer look

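Over the 19 probe sets and 3 groups, 3 of 57 groups of 4 arrays had an array far from the other 3, where chance gives about 1 in 20. On MMP14 202827_s_at, shHIF array D read 9.40 and the other shHIF arrays 9.19 to 9.21. On TIMP1 201666_at, control array B read 11.48 and the other control arrays 11.70 to 11.71. On TIMP2 203167_at, Sharp1 array B read 7.34 and the other Sharp1 arrays 7.59 to 7.60, all of them below the shHIF and control arrays.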

How the results depend on the processing

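The counts of called members, 3 in Sharp1 against control, 2 in shHIF against control and 3 in Sharp1 against shHIF, were recomputed under 21 alternatives each. The count for shHIF against control was 3 with the mean of all probe sets, which adds TIMP2. The count for Sharp1 against shHIF was 4 without shHIF array A, which adds MMP13. The filter on dim probe sets left 6 of the 9 members in the test. With the replicate block the counts were 3, 2 and 3. Arrays with the same letter did not deviate together (correlations of −0.157 to 0.130, 1 of 12 over 0.1), so the letters were not taken as pairs.

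Of 1122 recomputed differences of single probe sets or genes, 1079 kept their direction and call, 4 gained and 8 lost a call, and 31 changed sign, none of them called in either fit. The 8 lost calls were those of MMP14 217279_x_at. TIMP3 201148_s_at gained a call in shHIF against control without control array D (−0.156, adjusted p 0.0182). For the sign changes the cause was not tested. With each array centred on its median, MMP13 was 0.00175 in Sharp1 against control, and MMP3 and MMP9 were 0.00434 and 0.0127 in Sharp1 against shHIF. With the mean of all probe sets MMP14 was −0.0773 in Sharp1 against control and −0.0345 in Sharp1 against shHIF. Without shHIF arrays A and D, MMP2 1566677_at was −0.00158 in shHIF against control. Leaving out each array in turn, the Sharp1 against control difference ranged from −0.041 to 0.043 for MMP2 1566678_at, −0.18 to 0.0079 for MMP2 1566677_at, −0.0075 to 0.104 for MMP9, −0.075 to 0.048 for MMP13, −0.011 to 0.051 for MMP14 160020_at, −0.022 to 0.084 for MMP14 202828_s_at and −0.043 to 0.032 for TIMP1. The shHIF against control difference ranged from −0.044 to 0.075 for MMP2 1566677_at, −0.074 to 0.041 for MMP14 160020_at and −0.0050 to 0.090 for TIMP1. The Sharp1 against shHIF difference ranged from −0.057 to 0.0066 for MMP3, −0.0615 to 0.021 for MMP9 and −0.018 to 0.0975 for MMP14 160020_at.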
